A study of Equus caballus with 6 samples.

Results

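Small RNAs of 25 to 28 nt that carried adenine at position 10 and no uridine at position 1 were examined in testes of the Mongolian horse. These letters are the textbook marks of secondary piRNAs, and the sequences are called short secondary-type piRNAs here. They were chosen by length and letters alone, and 202602 of the 4936717 distinct sequences in the deposited table met the rule (4.10%), with 447825 of 17914237 reads (2.50%). The 6 libraries came from total RNA of testis, with 3 libraries of mature testis and 3 of immature testis, all of the Mongolian horse breed and with no treatment named. The labels give no age and do not say that each library came from a separate animal, so p-values measure only the spread between these libraries. The table lists sequences already called piRNAs, of 25 to 32 nt, and positions in the genome were not analysed here.

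PIWI proteins of germ cells carry piRNAs, which guide the silencing of transposons. In the ping-pong cycle, described in flies and mice, a piRNA that starts with uridine guides the cut of a complementary transcript, and the cut end becomes the 5′ end of a new, secondary piRNA. The cut falls opposite a fixed base of the guide, so both piRNAs overlap by their first 10 nt and the secondary one has adenine at position 10, opposite the first uridine of its partner. In mice, MILI, a PIWI protein present before and during meiosis, carries shorter piRNAs than MIWI, which appears in meiotic and later germ cells. In bulk testis, fewer cells of a type and less RNA per cell cannot be told apart.

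The sequences that carry the results are printed 5′ to 3′ with T for U, as the deposited table gives them. Capitals mark the first 10 bases, the stretch that would pair with a partner, and the last capital is the adenine at position 10. The first set holds abundant members of mature testis and sequences called higher there, and other abundant ends are not printed.
uniq_2089930: CATTTATTGAgtgtctactgtgtgcttc
uniq_4091021: GATTTATTGAgtgtctactgtgtgcttc
uniq_3308986: ATCTGTTGCAgtcagaggaactgagc
uniq_4231549: ACAGTTGGAAttcccagaaactctgtg
uniq_4901519: GCTGATTGCAgagcaatttacactgat
uniq_4883555: CACCATCTGAtggtggacactgtgc

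The next set holds abundant members of immature testis or sequences called higher there.
uniq_321910: ACAGACTGTAgaagatgccaatagctct
uniq_321222: CCATTGAGTAtgatgttggctgtgggt
uniq_2340675: GGCTGAAGTAggacttctgctctgggt
uniq_3244337: AGGCACCTAAacccaagaactgctgtc
uniq_3756919: CCTGGGAATAccgggtgctgtaggctc

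The table held 4139452, 4032042 and 4550970 reads in mature replicates 1 to 3, and 1382083, 2347351 and 1462339 reads in immature replicates 1 to 3. The short secondary-type piRNAs had 74937 to 76762 reads per mature library and 58981 to 97147 reads per immature library. All levels are in CPM, read counts scaled to the library's total over the whole table. A sequence with 0 reads could still have had up to 3, that is 0.659 to 0.744 CPM in the mature libraries and 1.28 to 2.17 CPM in the immature libraries. Intervals and floors cover counting error only. Most of these piRNAs were rare, since 167589 of them (82.7%) had 1 read in all libraries together and 288 were read in all 6 libraries. Of all 4936717 sequences in the table, 3798843 (77.0%) had 1 read. Of the 202602 sequences, 58355 (28.8%) were read in mature testis alone, 137384 (67.8%) in immature testis alone and 6863 (3.39%) in both. A sequence with 1 read can be read in only 1 group, so these counts do not measure the overlap of the groups. The same counts over all sequences were not made.

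Short secondary-type piRNAs took a smaller part of the piRNA reads in mature testis. Their share of reads was 1.81%, 1.90% and 1.69% in mature replicates 1 to 3, against 4.27%, 4.14% and 4.33% in immature replicates 1 to 3. Every mature library lay below every immature library. The means were 1.80% ± 0.110 in mature testis and 4.24% ± 0.0971 in immature testis (SD, n = 3 each, exact two-sided permutation p = 0.1). That p is the smallest 3 against 3 libraries can give, and over the 26 measures compared this way it has a Benjamini-Hochberg adjusted p of 0.108, which 24 of the 26 shared. With each sequence counted once per library the share was 2.33% ± 0.0799 in mature testis, against 5.27% ± 0.154 in immature testis (exact permutation p = 0.1). The 95% Wilson interval of the lowest share was 1.67% to 1.70% and that of the highest was 4.30% to 4.36%.

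Sequences with the same 2 letters but 29 to 32 nt long differed the other way. They made up 2.60%, 2.77% and 2.56% of reads in mature replicates 1 to 3, against 1.70%, 1.57% and 1.77% in immature replicates 1 to 3. Of all reads with adenine at position 10 and no uridine at position 1, the 25 to 28 nt class held 40.5% ± 0.695 in mature testis, against 71.6% ± 0.811 in immature testis (exact permutation p = 0.1). Of all reads of 25 to 28 nt, whatever their letters, it held 6.57%, 6.67% and 5.72% in mature replicates 1 to 3, against 6.55%, 6.84% and 6.57% in immature replicates 1 to 3. These values overlapped between the groups (exact permutation p = 0.6). Counted by reads, the share within 25 to 28 nt therefore did not separate the groups. Counted once per sequence, that share was 5.49% in mature testis, against 7.18% in immature testis (exact permutation p = 0.1). Without the leading mature 5′ end described below it was 4.34% in mature testis and 6.59% in immature testis. Both of these measures were added after the values were seen.

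Adenine at position 10 was compared among all 25 to 28 nt sequences without first uridine. It was carried by 49.7%, 49.5% and 45.9% of such reads in mature replicates 1 to 3, against 37.6%, 43.7% and 40.5% in immature replicates 1 to 3. The mean was 48.4% ± 2.14 in mature testis and 40.6% ± 3.06 in immature testis (SD, n = 3 each, exact permutation p = 0.1). The direction changed without the abundant sequences. Counted once per sequence the share was 35.1% in mature testis and 44.8% in immature testis, and without the leading mature 5′ end it was 38.7% and 40.4% of reads. Over positions 2 to 25 other than 10, adenine was found in 19.3% to 40.8% of distinct sequences in mature testis and in 19.8% to 37.1% in immature testis, with the highest value at position 2 in both. In mature testis the share of distinct sequences at position 10 was thus below that at position 2, and in immature testis it was above every other position. At the same length, sequences that did start with uridine had adenine at position 10 in 26.6% ± 0.376 of mature and 29.3% ± 0.602 of immature reads.

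Among distinct sequences the share with adenine at position 10 was lower in mature testis after each first base. It was 38.7% in mature testis and 48.9% in immature testis after first A, 34.1% and 41.9% after first C, and 32.9% and 43.8% after first G (exact permutation p = 0.1 for each). By reads, first C led in mature testis, with 55.3% against 40.5% in immature testis. The excess of reads over distinct sequences lay mainly at 28 nt, where 66.9% ± 1.66 of mature and 41.1% ± 2.89 of immature reads without first uridine had adenine at position 10. At 26 nt the values were 37.1% in mature testis and 40.2% in immature testis and overlapped (exact permutation p = 0.3).

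The letters around position 10, which the rule did not fix, also differed from those of other sequences. The values here are shares of distinct sequences, given as a description with no test, beside 25 to 28 nt sequences with neither first uridine nor adenine at position 10. Thymine at position 9 was found in 17.9% of short secondary-type piRNAs in mature testis and 23.1% in immature testis, and in 37.7% and 39.7% of those other sequences. Cytosine at position 8 was found in 12.9% in mature testis and 13% in immature testis, and in 22.9% and 22.4% of the others. Guanine at position 11 was more frequent, with 34.4% in mature testis and 33.1% in immature testis, and with 25.3% and 25.8% of the others. Guanine at position 9 of short secondary-type piRNAs stood at 33.4% ± 0.336 in mature testis and 28.4% ± 0.835 in immature testis (SD, n = 3 each), with no overlap between the libraries. The GC content of distinct sequences was 48.2% in mature testis, against 48.0% in immature testis (exact permutation p = 0.7). Weighted by reads it was 44.9% ± 0.122 in mature testis and 48.0% ± 0.226 in immature testis.

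Cytosine was the first base of most reads in mature testis, and cytosine and adenine were near equal in immature testis. First C made up 62.5%, 61.6% and 62.8% of these reads in mature replicates 1 to 3, against 40.2%, 42.8% and 44.0% in immature replicates 1 to 3. First A made up 22.5% ± 1.28 in mature testis and 39.5% ± 0.342 in immature testis, and first G 15.2% ± 0.867 and 18.2% ± 1.80 (exact permutation p = 0.1 for each base). The values for C and G depended on abundant sequences. Without the leading mature 5′ end, first C was 44.0% in mature testis against 41.7% in immature testis (exact permutation p = 0.3), and first G was higher in mature testis, at 22.5% against 18.4%. First A stayed lower in mature testis counted once per sequence, at 31.7% against 38.7% in immature testis.

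Within the 25 to 28 nt window, longer sequences prevailed in mature testis. Reads of 28 nt made up 45.6%, 42.3% and 42% in mature replicates 1 to 3, against 19.1%, 17.6% and 18.2% in immature replicates 1 to 3. In immature testis 27 nt was the most frequent length, with 45.9% ± 0.717, against 33.3% ± 1.33 in mature testis. Reads of 26 nt made up 20.02% ± 0.340 in mature testis and 30.9% ± 1.06 in immature testis, and those of 25 nt 3.41% ± 0.350 and 4.88% ± 0.412. The mean length was 27.2 nt ± 0.0302 in mature testis, against 26.8 nt ± 0.0264 in immature testis (exact permutation p = 0.1). Without the leading mature 5′ end the differences were smaller and the groups still did not overlap, with 23.4% of reads at 28 nt in mature testis against 17.7% in immature testis, and with mean lengths of 26.9 nt against 26.8 nt (exact permutation p = 0.1 for both).

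The same 5′ ends were also read longer in mature testis. For this comparison all sequences of 25 to 32 nt with adenine at position 10 and no first uridine were grouped by their first 25 nt, and 866 such ends were read in every library. With every end weighted equally, their mean length was 28.6 nt ± 0.0330 in mature testis and 28.1 nt ± 0.0387 in immature testis (SD, n = 3 each, exact permutation p = 0.1). Of the 866 ends, 598 (69.1%) were longer and 236 were shorter in mature testis, with a median difference of 0.251 nt. Ends of 25 to 28 nt piRNAs numbered 155497, of which 23348 (15%) were also read at 29 to 32 nt.

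The reads in mature testis were concentrated in few sequences. The 100 most abundant members of each library held 47.3%, 45.9% and 43.2% of short secondary-type reads in mature replicates 1 to 3, against 6.91%, 8.63% and 7.92% in immature replicates 1 to 3. At an equal 58981 reads per library, 21372 ± 459 distinct members were seen in mature testis and 44851 ± 449 in immature testis (SD, n = 3 each, exact permutation p = 0.1). Without the leading mature 5′ end, the 100 most abundant members held 20.6% of mature and 7.04% of immature reads (exact permutation p = 0.1). Distinct members then averaged 25573 per mature library, against 38555 per immature library (exact permutation p = 0.1). With the reads of that end removed, the equal depth was lower than 58981 reads. These counts can therefore be compared between the groups, but not with the counts that include the end. Grouped by their first 20 nt, the members fell into 147959 5′ ends, of which 121476 had 1 member and 508 had 10 or more.

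One 5′ end held a large part of the reads in mature testis. The 64 members that began as uniq_2089930 together had 6189, 6119 and 5341 CPM in mature replicates 1 to 3, against 132, 766 and 395 CPM in immature replicates 1 to 3. They held 31.7% to 34.2% of short secondary-type reads in mature testis and 0.310% to 1.85% in immature libraries. The mature libraries were close to each other, and all lay above the immature libraries, which differed among themselves. The group means stood at a ratio of 13.7, and of 22.3 without immature replicate 2. uniq_2089930 itself, of 28 nt, had 4820, 4497 and 4043 CPM in mature replicates 1 to 3, against 96.2, 541 and 285 CPM in immature replicates 1 to 3. The next most abundant members of this end, uniq_2094909, uniq_4457384 and uniq_1165687, differed from it at their 3′ ends and were 9.33 to 14 times higher in mature testis. Without immature replicate 2 these ratios were 14.2 to 30.6, and that of uniq_2089930 itself was 23.4, against 14.5 with all libraries.

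Each sequence was tested with edgeR's quasi-likelihood test on the whole table, and a Benjamini-Hochberg adjusted p under 0.05 over all 31788 sequences tested made a call. Of the 202602 members, 462 passed the filter on low counts, with 30.4% of the members' reads, and 202140 did not. With TMM scaling, which assumes that most sequences do not differ, 20 of the 462 (4.33%) were called higher in mature testis, beside 8.41% of all sequences tested. In immature testis 262 (56.7%) were called higher, beside 21.9% of all. Scaled to library totals instead, 200 (43.3%) were called higher in mature testis, beside 77.7% of all, and 258 (55.8%) higher in immature testis, beside 20.3% of all. The median log2 fold change of all sequences was 0.62 with TMM and 3.15 with library totals, and that of the 462 members was -5.20 and -2.65. All 20 mature-high calls with TMM, and 258 of the 262 immature-high calls, were made on both scales. A member could pass the filter through the group where it was high, so these counts describe the tested members and not the class. Leaving out immature replicate 1, with 787 members tested, 1.52% were called mature-high and 51.3% immature-high, beside 3.35% and 19.1% of all. Leaving out immature replicate 2, with 728 members tested, the shares were 6.04% and 46.8%, beside 11.7% and 17.3% of all. The 262 began with A in 113 cases, with C in 111 and with G in 38, and came from 166 5′ ends of 20 nt, while the 20 came from 16 ends.

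The most abundant member shows what the scaling does. uniq_2089930 was higher in mature testis by a log2 fold change of 3.85 ± 0.82 with library totals (SE, edgeR adjusted p = 5.57e-06) and of 1.32 ± 0.63 with TMM (edgeR adjusted p = 0.101), so it was not called with TMM. The same held for uniq_2094909, uniq_4457384, uniq_1165687 and uniq_4901519, whose edgeR adjusted p-values with TMM were 0.105 to 0.445.

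Several 5′ ends were called higher in mature testis on both scales. uniq_4231549 had 73.9, 154 and 113 CPM in mature replicates 1 to 3, against 2.17, 6.39 and 2.74 CPM in immature replicates 1 to 3. Every mature library lay above every immature one, and its log2 fold change was 2.28 ± 0.68 with TMM (edgeR adjusted p = 0.00359). Leaving out 1 library moved that log2 fold change over 2.02 to 3.51, and the call was lost without immature replicate 3 (edgeR adjusted p = 0.0770). Its shorter form uniq_2867201, of 26 nt, and the forms that started 1 base upstream, uniq_4547020 and uniq_3993739, were called with TMM as well. uniq_4547020 was called in 14 of 14 fits, uniq_2867201 in 9 of 14 and uniq_3993739 in 9 of 13, and both of these last lost the call without immature replicate 3 (edgeR adjusted p = 0.0565 and 0.0752). uniq_2867201 also lost it without mature replicate 2 (edgeR adjusted p = 0.0548), and uniq_3993739 without mature replicate 3 (edgeR adjusted p = 0.0638). uniq_4883555 had 30.4, 37.9 and 41.1 CPM in mature replicates 1 to 3, against 0, 0.852 and 0.684 CPM in immature replicates 1 to 3 (edgeR adjusted p = 0.000658 with TMM). It was near or below the floor in every immature library.

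uniq_4091021 differed from uniq_2089930 by 1 substitution, C1G, counted from the 5′ end. It had 349, 326 and 240 reads in mature replicates 1 to 3, against 0, 1 and 0 reads in immature replicates 1 to 3 (edgeR adjusted p = 1.61e-07 with TMM). For each 100 reads of uniq_2089930 it had 1.75, 1.80 and 1.30 reads in the mature libraries and 0.0787 reads in immature replicate 2, which held 1270 reads of uniq_2089930. A form with T as first base, uniq_3842421, which is outside the rule, had 312, 274 and 271 reads in the mature libraries, against 0, 6 and 2 reads in the immature libraries. No form with A as first base was among the sequences analysed here. The origin of these forms was not tested.

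One end that was high in mature testis was nearly missing from mature replicate 3. The 33 members that began as uniq_3308986 had 709, 507 and 8.79 CPM in mature replicates 1 to 3, against 8.68, 20.9 and 13 CPM in immature replicates 1 to 3. Replicate 3 lay within the range of the immature libraries, so the groups overlapped. The 24 members that began as uniq_3724382 had 95.4, 73.4 and 3.08 CPM in mature replicates 1 to 3, against 0, 8.52 and 0 CPM in immature replicates 1 to 3. These were 2 of the 33 ends over 20 CPM in both other mature libraries, and in each of the other 5 libraries 0 of 30 to 41 such ends fell below 10% of the lower of the other replicates. uniq_3308986 itself was called with TMM (log2 fold change 2.68 ± 0.68, edgeR adjusted p = 0.000418). It was called in 10 of the 12 fits that tested it, and lost the call without immature replicate 1 (edgeR adjusted p = 0.0869) and with the replicate number as a block (edgeR adjusted p = 0.202). Without mature replicate 3 its log2 fold change was 3.33 (edgeR adjusted p = 4.62e-05). uniq_2921429, a 28 nt form of the same end, had 115, 164 and 0 CPM in mature replicates 1 to 3, against 2.89, 3.83 and 2.74 CPM in immature replicates 1 to 3. It was called with TMM (log2 fold change 2.31 ± 0.70, edgeR adjusted p = 0.00407), but in only 5 of the 10 fits that tested it.

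Several ends abundant in immature testis were low in mature testis, but not all were. By group mean the end of uniq_3756919, described below, led immature testis with 642 CPM and had 128 CPM in mature testis. The end of uniq_2089930, with an immature mean of 431 CPM, was higher in mature testis. The 95 members that began as uniq_321910 had 23.2, 45.9 and 25 CPM in mature replicates 1 to 3, against 643, 488 and 774 CPM in immature replicates 1 to 3. Their immature mean was 20.2 times the mature one, with no overlap. The 59 members that began as uniq_2340675 had 0.725, 2.73 and 1.54 CPM in mature replicates 1 to 3, against 213, 250 and 120 CPM in immature replicates 1 to 3. That is 117 times higher in immature testis, again with no overlap. uniq_321222 had 0.966, 1.24 and 0.659 CPM in mature replicates 1 to 3, against 122, 73.3 and 76.6 CPM in immature replicates 1 to 3 (log2 fold change -9.12 ± 0.87 with TMM, edgeR adjusted p = 3.19e-23). The ends of uniq_266189, with 102 members, and of uniq_2330856, with 80, were 39.9 and 37.9 times higher in immature testis. The 8 most abundant immature-high calls were called in 14 of 14 fits each. They include uniq_263935, a 27 nt form of the end of uniq_321910, and uniq_3759851, a 28 nt form of the end of uniq_3756919.

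The end of uniq_3756919 was the second most abundant, with the group means weighted equally. Its 45 members had 107, 166 and 109 CPM in mature replicates 1 to 3, against 269, 809 and 849 CPM in immature replicates 1 to 3. Every immature library lay above every mature one, with a ratio of 5.04, and immature replicate 1 was the lowest of its group. Apart from its last base, its letters are those near the 3′ end of mammalian 5S ribosomal RNA as textbooks give it. That likeness was not checked against a reference sequence here. uniq_3756918 and uniq_4585869 differed from it in their last base alone. The 122 members that shared 16 nt with it held 0.705% to 1.04% of short secondary-type reads in mature testis and 0.799% to 2.35% in immature libraries, and without them the share of all reads was 1.79% in mature testis and 4.19% in immature testis. uniq_3244337, with 4.83, 8.43 and 7.47 CPM in mature replicates 1 to 3, against 57.2, 127 and 52.7 CPM in immature replicates 1 to 3, was the lone member of its 5′ end. Members that shared 16 nt with the leading tRNA fragments of the table numbered 31 and held at most 0.0730% of short secondary-type reads.

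A possible ping-pong partner was any sequence whose initial 10 nt could pair in full with the initial 10 nt of the member. Such a partner was read in the same library for 94.8%, 94.1% and 93.7% of short secondary-type reads in mature replicates 1 to 3, against 88.5%, 93.0% and 90.4% in immature replicates 1 to 3. The background was nearly as high. Windows that ended at an adenine at positions 11 to 20 of the same sequences found a match for 82.6% ± 1.08 of reads in mature testis and 83.7% ± 3.11 in immature testis. The measure was thus near its upper limit in every library. The excess over background was 11.1, 12.5 and 11.3 percentage points in mature replicates 1 to 3, against 7.21, 5.85 and 7.92 points in immature replicates 1 to 3 (exact permutation p = 0.1). Counted once per sequence it was 7.20 points in mature testis, against 6.69 in immature testis (exact permutation p = 0.5). With partner ends of at least 10 CPM, a floor added after the values were seen, the excess was 7.48, 9.12 and 7.29 points in mature replicates 1 to 3, against 9.46, 10.04 and 11.3 points in immature replicates 1 to 3, for members counted once. Weighted by reads, that excess was 39.2 points in mature testis and 11.4 in immature testis. The end of uniq_2089930 alone held 31.7% to 34.2% of the mature reads counted here. Its partner stretch summed to 252 CPM ± 25.1 in mature testis, so that end passed the floor. The floor was not applied without that end. Without the leading mature 5′ end, the excess with no floor was 8.82 points of reads in mature testis, against 6.91 in immature testis (exact permutation p = 0.1). With all libraries thinned to the smallest table total it was 18.5 points in mature testis and 8.06 in immature testis, and for sequences of at least 3 reads 30.7 and 19.98 points. The direction between the groups thus depended on how members were counted, while an excess over the mean of the background windows was present in every library. Single background windows ranged from 69.4% to 91.7% of reads over the libraries. The share at 10 nt lay above each of them within every library, though by little in immature replicate 2, with 93.0% against 91.7%.

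The partners were close in length to the sequences matched at the background windows. Of partner reads, 72.5% ± 0.287 in mature testis and 30.3% ± 4.22 in immature testis were 29 to 32 nt long (exact permutation p = 0.1). Sequences matched at the background windows gave 73.1% ± 1.67 in mature testis and 28.8% ± 2.01 in immature testis. The mean partner length was 29.2 nt ± 0.0686 in mature testis and 27.6 nt ± 0.173 in immature testis.

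A stricter search, added after the values were seen, asked for a bridging sequence. A bridging sequence held, on either strand, the first 16 nt of a member together with the 11 to 14 nt before them. A bridged partner began with the 16 nt complementary to that sequence at the given overlap, so a longer overlap left fewer partner bases outside the member. Of 142291 member ends of 16 nt, 31958 (22.5%) had a bridging sequence, and 11461 of these (35.9%) had a partner at an overlap of 10 nt. At overlaps of 5 to 9 and 11 to 15 nt, with adenine at the matching position of the member, 26.8% to 41.0% had one, and the highest value was at 15 nt. The overlap of 10 nt was therefore not the highest with all libraries pooled. Within libraries, counted over distinct members, it was the highest in 3 of 6, mature replicates 1 and 2 and immature replicate 3. Pooled, 25 to 28 nt sequences with both first uridine and adenine at position 10 had their highest value at 10 nt. It was 29.8%, against 16.3% to 27.9% at the other overlaps. Secondary-type piRNAs of 29 to 32 nt had 35.3% at 10 nt and 26.6% to 39.4% at the other overlaps.

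By library, distinct members at bridged ends were counted, with partners read in that library and bridging sequences from any library. Bridged partners at 10 nt were found for 25.9%, 28.6% and 26.3% of these in mature replicates 1 to 3, against 34.1%, 36.5% and 34.3% in immature replicates 1 to 3. Every mature library lay below every immature library. The excess over the mean of the other overlaps was 5.57 points ± 0.328 in mature testis and 6.47 points ± 0.654 in immature testis (SD, n = 3 each, exact permutation p = 0.1). It was 5.76, 5.77 and 5.20 points in mature replicates 1 to 3, against 5.80, 7.11 and 6.51 points in immature replicates 1 to 3, so the nearest libraries of the groups lay close together. Weighted by reads, the excess was -4.0 points in mature testis and 4.16 points in immature testis, and the end of uniq_2089930 had no bridged partner.

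Partners of 5 abundant ends were chosen after their values were seen. For uniq_2340675 the partner was the leading one among bridged partners only, and for the others the leading one of all. Members whose summed partners moved differently, or whose partner was below the floor, are given at the end. The partner stretch is in capitals, and a lower-case line is a bridging sequence, which matches its partner over 16 nt or more.
uniq_1175555, partner of uniq_2089930: TCAATAAATGctgatttgtgagtgaatg
uniq_2483519, partner of uniq_4901519: TGCAATCAGCtggggacggaactccagga
uniq_2646397, bridge of uniq_4901519 and uniq_2483519: ttgctctgcaatcagctggggagggaac
uniq_4001148, partner of uniq_3308986: TGCAACAGATgtgctctgactgagatcacc
uniq_464313, partner of uniq_321910: TACAGTCTGTggttagtacacctagc
uniq_2348999, partner of uniq_2340675: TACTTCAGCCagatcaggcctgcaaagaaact
uniq_2370487, bridge of uniq_2340675 and uniq_2348999: gcaggcctgatctggctgaagtaggactt

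The pair with the highest partner level in mature testis among those shown was uniq_4901519 with uniq_2483519. The member had 140, 157 and 181 CPM in mature replicates 1 to 3, against 5.06, 18.3 and 16.4 CPM in immature replicates 1 to 3. The partner, of 29 nt, had 896, 950 and 933 CPM in mature replicates 1 to 3, against 41.2, 0.426 and 148 CPM in immature replicates 1 to 3. Both lay higher in every mature library, and the partner exceeded the member except in immature replicate 2. The bridge uniq_2646397 covered 22 nt of the partner and matched its first 16 nt up to a mismatch. In the printed lines the 2 sequences differ at that base alone over the covered stretch. The bridge had 0.242, 0 and 0.220 CPM in mature replicates 1 to 3, against 0 CPM in the immature libraries. All 195 sequences with the partner stretch summed to 1848 CPM ± 67.2 in mature testis and 141 CPM ± 147 in immature testis.

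In contrast, uniq_2089930 far exceeded its partners. The leading one, uniq_1175555, had 104, 68.0 and 94.5 CPM in mature replicates 1 to 3, against 2.89, 9.37 and 2.74 CPM in immature replicates 1 to 3. All 232 sequences with the partner stretch summed to 252 CPM ± 25.1 in mature testis and 23.6 CPM ± 15.2 in immature testis (SD, n = 3 each). No sequence bridged this end to a partner.

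For uniq_3308986 the partner went the way of the member. uniq_4001148 had 73.9, 19.1 and 0 CPM in mature replicates 1 to 3, against 0, 2.56 and 0.684 CPM in immature replicates 1 to 3. Mature replicate 3, where the member was low, was also the mature library with 0 reads of the partner. The 156 sequences with the partner stretch summed to 289, 102 and 12.3 CPM in mature replicates 1 to 3, against 12.3, 15.8 and 14.4 CPM in immature replicates 1 to 3.

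The ends of uniq_321910 and uniq_2340675 had scarce partners that were higher in the same libraries. uniq_464313 had 0, 0.248 and 0.220 CPM in mature replicates 1 to 3, against 5.06, 12.4 and 10.9 CPM in immature replicates 1 to 3. uniq_2348999 had 0, 0.248 and 0 CPM in mature replicates 1 to 3, against 2.17, 11.1 and 6.15 CPM in immature replicates 1 to 3. Both were higher in every immature library, as their members were. The bridge uniq_2370487 matched uniq_2348999 over all 23 nt it covered, and it had 0 CPM in the mature libraries, against 7.24, 15.3 and 2.05 CPM in immature replicates 1 to 3. The 148 sequences with the partner stretch of uniq_321910 summed to 4.0 CPM ± 1.05 in mature testis and 47.9 CPM ± 4.18 in immature testis. uniq_3756919 had 15 sequences with its partner stretch, none of them bridged, and uniq_3244337 had none.

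For other members the sum over the partner stretch did not move with the member, or the partner was below the floor. uniq_4231549, higher in mature testis, had 86 sequences with its partner stretch, which summed to 10.2 CPM ± 0.553 in mature testis and 15.2 CPM ± 2.24 in immature testis (SD, n = 3 each). Its leading partner uniq_4948615 had 0.725, 2.23 and 2.42 CPM in mature replicates 1 to 3, against 0, 0 and 0.684 in the immature libraries. That single partner, which was bridged, thus went the way of the member, with immature values below the floor. For uniq_4883555, also higher in mature testis, 78 such sequences summed to 7.73 CPM ± 1.27 in mature testis and 12.05 CPM ± 3.22 in immature testis. The leading one, uniq_2937263, had 1.21, 1.74 and 1.98 CPM in mature replicates 1 to 3, against 0, 0 and 0.684 in the immature libraries. The end of uniq_2082799 had 196, 215 and 219 CPM in mature replicates 1 to 3, against 5.06, 31.95 and 14.4 CPM in immature replicates 1 to 3. Its bridged partner uniq_2183435 had 0 CPM in the mature libraries, against 0.724, 0 and 0.684 CPM in immature replicates 1 to 3, all below the floor. Whether partners followed a member thus depended on the member and on whether single partners or sums were taken.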

How the data were processed

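Small RNA libraries were made from RNA of 3 mature and 3 immature testis samples, with adapters ligated to both ends and a gel cut of the products, per the labels' protocols. The deposited table gives whole-number read counts per distinct sequence, not normalized, per the file headers. Bowtie is the aligner named per the submitters' processing notes, with no version. How piRNAs were called, and on which genome build, is not given in the sources used here. Totals are those of called piRNAs and not sequencing depth.

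Members were selected by length and letters, and the rule and lists were chosen with earlier results of these data known. Shares were compared by exact two-sided permutation tests (Python 3.11.15, scipy 1.17.1). Counts went into the quasi-likelihood test of edgeR 4.0.16 under R 4.3.3 (TMM factors, filterByExpr defaults), and DESeq2 1.42.0 was an alternative. The standard error is the log2 fold change over the square root of the F statistic. Both computations were tested on simulated data. Sequences named were the 8 most abundant members called higher in each group and the 8 most abundant over all libraries. Leading partners are given for some of them. uniq_3842421 and uniq_4465995, the leading sequences of 5′ ends and the bridged pairs were chosen after their values were seen.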

Additional observations from a re-analysis of the deposited data

How the results depend on the processing

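Values here are mature minus immature testis, and the cause of each change was not tested. The share of 25 to 28 nt reads without first uridine that had adenine at position 10 differed by 7.74 percentage points. It reversed to -9.63 counted once per sequence, -4.87 without the 100 most abundant members, -0.622 at 26 to 27 nt and -1.70 without the end of uniq_2089930. Taking the members over reads of their length without first uridine (7.74) likewise reversed their share. First G reversed to 4.04, 4.18, 1.83 and 4.16 points under the same settings, in that order, and first C weakened to 2.28 without that end. The 10 nt partner share reversed to -1.75 counted once, -0.588 without the 100 most abundant and -1.63 with libraries thinned to the smallest table total, and weakened to 1.53 at 26 to 27 nt, 0.838 without that end and 0.534 with 9 nt. Its excess weakened to 0.512 counted once and 0.489 with 9 nt, and reversed to -0.344 with partners from the whole table, and grew to 10.4 with the thinned libraries and 10.7 for at least 3 reads. The members' share of 25 to 28 nt reads became separate at -1.69 counted once, -2.62 without the 100 most abundant, -1.72 at 26 to 27 nt and -2.25 without that end, and reversed to 0.858 for sequences of at least 3 reads. The bridged excess weakened to -0.875 for at least 3 reads, -0.836 without that end, -1.03 with the whole table and -0.497 with the thinned libraries.

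Mature-high and immature-high members numbered 20 and 262 of 462 tested (4.33% and 56.7%, beside 8.41% and 21.9% of all). On the same 462 they were 200 and 258 with library totals (43.3% and 55.8%, beside 77.7% and 20.3%). Upper quartile factors gave 96 and 262 (20.8% and 56.7%, beside 43.5% and 21.5%). DESeq2 gave 26 and 262 (5.63% and 56.7%, beside 12.7% and 21.8%). With other filters the tested sets differ, so shares are given too: 4 and 46 of 97 at 10 CPM or more in 3 libraries (4.12% and 47.4%, beside 4.61% and 19.1% of all), 235 and 2862 of 5881 with at least 6 reads (4.0% and 48.7%, beside 9.81% and 19.5%), and 4 and 83 of 149 with thinned libraries (2.68% and 55.7%, beside 5.81% and 21%). The replicate block gave 5 and 262 of 462 (1.08% and 56.7%, beside 2.18% and 21.4% of all). Same-numbered libraries share only a number: the correlations of their deviations were 0.0201, -0.0674 and 0.00741, and not every library correlated best with its own number. Under the block uniq_4465995 had a log2 fold change of -0.11 (edgeR adjusted p = 0.94), reversed from 0.94.

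Leaving out 1 replicate, the counts ranged from 12 to 44 and from 341 to 404, of 501 to 787 members tested. The mature-high share ranged from 1.52% to 6.04%, beside 3.35% to 11.7% of all. The immature-high share ranged from 46.8% to 70.1%, beside 17.3% to 30.8% of all. Without immature replicate 1 the counts were 12 and 404 of 787, and without immature replicate 2 they were 44 and 341 of 728. Without immature replicate 3 they were 17 and 395 of 781 (2.18% and 50.6%, beside 3.35% and 19.1% of all). The share of reads ranged from -2.50 to -2.39 and of distinct sequences from -3.02 to -2.87, adenine at position 10 from 6.24 to 9.30, first A from -17.4 to -16.2, first C from 18.9 to 20.8, first G from -3.66 to -1.98, 28 nt from 23.8 to 25.6, mean length from 0.370 to 0.402 nt and length at shared ends from 0.434 to 0.474 nt. Partner share ranged from 2.48 to 4.74, its excess from 4.05 to 5.09, partners of 29 to 32 nt from 40.1 to 44.3, partner length from 1.45 to 1.62 nt, bridged share from -8.87 to -7.26 and bridged excess from -1.23 to -0.580. The 100 most abundant ranged from 36.7 to 38.8, distinct members from -23714 to -23252, the share of 25 to 28 nt reads from -0.509 to -0.0312 and that of reads with adenine at position 10 and no first uridine from -31.5 to -30.7. Settings that dropped the end of uniq_2089930 or the 5S-like sequences, the bridged measure, the 10 CPM partner floor and the denominators of 25 to 28 nt and of all secondary-type reads were chosen after the data were seen. Of 262 recomputed summary values 210 kept direction and call.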
